A study of Mus musculus with 8 samples.

Results

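The axon guidance ligands and receptors were taken by gene symbol: the semaphorins of classes 3 to 7 with their neuropilin and plexin receptors, the Slits and Robos, the netrins with Dcc and the Unc5 receptors, and the ephrins with the EphA and EphB receptors. Of 45037 probe sets, 151 were listed with a single gene of these names, and the brightest of these over all 8 arrays stood for its gene, which gave 68 of the 18193 genes measured. The rule used the symbol and the mean brightness, and no difference between groups. The members were, however, chosen with earlier results of these data known. RNA came from primary mouse embryonic fibroblasts (MEF, 2 arrays), from mouse neural precursor cells (NPC, 3 arrays) and from mouse embryonic stem cells of the V6.5 line (ES cells, 3 arrays). MEF were cultured in DMEM with fetal bovine serum. NPC had been made from ES cells in culture by way of embryoid bodies and selection in ITSFn medium and were then kept in FGF2 and EGF2, and the labels describe them as positive for nestin and Sox2 and able to give neurons, astrocytes and oligodendrocytes. ES cells were grown with leukemia-inhibiting factor on irradiated MEF and then passaged on gelatin without feeders. All samples are labelled wild type, and the labels give no strain, age or number of animals for MEF. All RNA was total RNA extracted with Trizol. Nothing in the labels states that replicate arrays came from separate cultures, so the spread that p-values measure here is between arrays and may be technical.

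Axon guidance cues are secreted or membrane-bound proteins that attract or repel growth cones, and many of them also steer migrating cells and blood vessels. Class 3 semaphorins are secreted and mostly act through a neuropilin and a plexin together, while the other semaphorins mostly bind plexins directly. Slits repel through Robos. Netrins attract through Dcc and repel through Unc5 receptors, and ephrins and Eph receptors signal between touching cells. Radial glia and other neural precursors are known to carry cues and receptors of several of these families, and fibroblasts and other mesenchymal cells secrete many of the same cues.

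Levels are log2(intensity + 16) after quantile normalization, a scale that starts near 4, so differences of dim genes are understated. Precision is limited by the number of arrays. A marker of each cell type was highest in the group of that label: Pou5f1, the pluripotency factor, was at 4.05 and 4.89 in MEF, 4.47, 4.59 and 4.88 in NPC and 11.95, 11.99 and 12.08 in ES cells. Fabp7, a radial glia marker, was at 6.31 and 6.27 in MEF, 13.18, 12.72 and 12.58 in NPC and 4.40, 4.16 and 4.11 in ES cells, and Col1a1, a collagen of fibroblasts, was at 12.97 and 13.02 in MEF, 4.12, 4.24 and 4.10 in NPC and 5.98, 6.39 and 6.08 in ES cells. All 6 macrophage markers were above the median of all genes in MEF and 1 of 6 in NPC and in ES cells, with summed intensities of 1060 to 1090 in MEF, 176 to 199 in NPC and 431 to 444 in ES cells. No endothelial marker of 6 was above that median in MEF or in NPC and 1 in ES cells, and the sums were 167 to 190 in MEF, 138 to 232 in NPC and 263 to 282 in ES cells. The sums of 4 fibroblast markers were 20100 to 20400 in MEF, 153 to 282 in NPC and 278 to 295 in ES cells. Those of 5 neural precursor markers were 581 to 583 in MEF, 11100 to 17100 in NPC and 4260 to 4900 in ES cells. Of these 5, 4 were called higher in NPC than in ES cells, while Sox2 was lower in NPC, at -0.98, not called. In ES cells 3 of the 5 were above the median of all genes. The neuron list, 7 genes, had 2 above the median in MEF, 3 in NPC and 2 in ES cells, with sums of 771 to 827 in MEF, 371 to 760 in NPC and 3020 to 3100 in ES cells, where Stmn2 at 11.43, 11.40 and 11.45 made up most of the sum. Stmn2 was at 4.41, 4.60 and 4.15 in NPC and was called lower there than in ES cells. Syt1 and Dcx of this list were called higher in NPC than in ES cells, with Syt1 at 5.19 and 5.12 in MEF, 6.65, 8.64 and 8.82 in NPC and 4.80, 4.88 and 4.94 in ES cells and Dcx at 4.06 and 4.06 in MEF, 4.46, 6.58 and 6.79 in NPC and 4.40, 4.14 and 4.63 in ES cells, and NPC 1 lay below NPC 2 and NPC 3 in both. In bulk samples like these, fewer cells of a type and less RNA per cell cannot be told apart. NPC 1 stood apart from its group: over all probe sets it correlated at 0.967 with NPC 2 and at 0.969 with NPC 3, which correlated with each other at 0.987. Over the 68 genes the median absolute gap was 0.205 between NPC 1 and NPC 2, 0.313 between NPC 1 and NPC 3 and 0.144 between NPC 2 and NPC 3. Its widest gaps to the mean of the other NPC arrays were in Sema3a, at 1.95, and in Robo1, at -1.31.

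Many guidance genes differed between the 3 cell types, some in each direction. NPC carried high Sema6d, Sema6a, Plxna2, Ntn1 and Epha5. MEF carried high Nrp1, Slit2, Unc5b, Sema3c and Efnb2, and ES cells stood out by Sema4d and Sema4a. Differences were tested with limma across all 18193 genes, and called means past both limits, 0.05 for the adjusted p and 1 log2 unit for the size of the difference. Between NPC and ES cells 32 of 68 members were called, 21 higher and 11 lower, which is 47.1% where 22.9% of all genes were called (10.0% higher and 12.9% lower). Between MEF and ES cells 31 members were called, 25 higher and 6 lower, which is 45.6% where 25.0% of all genes were called (12.2% higher and 12.8% lower). Between MEF and NPC 31 were called, 21 higher and 10 lower, again 45.6%, where 18.5% of all genes were called (10.5% higher and 7.95% lower). The comparisons share arrays, so their counts are not independent of each other. The counts of single families below stand beside these same shares of all genes, and most families hold few members. The median difference of the members was 0.0272 for NPC minus ES, 0.242 for MEF minus ES and 0.249 for MEF minus NPC, where all genes had -0.0458, -0.0416 and -0.0107. Their median absolute difference was 0.899 for NPC minus ES, 0.735 for MEF minus ES and 0.955 for MEF minus NPC, where all genes had 0.398, 0.443 and 0.355. Without NPC 1 the count was 34 for NPC against ES, with all 32 kept, and 32 for MEF against NPC, with 29 kept. At a pseudocount of 64 in place of 16, which compresses dim genes further, the members called fell to 17 for NPC against ES, 20 for MEF against ES and 25 for MEF against NPC. The shares of all genes called fell as well, to 14.4%, 16.1% and 11.6% in the same order. For NPC against ES this pseudocount ended the calls of Sema4a, Sema4c, Sema4f, Sema6c, Plxna3, Plxnc1, Plxnd1, Slit3, Robo2, Ntn3, Efna1, Efna5, Epha1, Epha3 and Epha4. For MEF against ES it ended those of Sema4a, Sema4c, Sema4g, Sema5a, Sema5b, Sema6a, Plxna1, Plxnc1, Robo1, Efna3 and Ephb4, and for MEF against NPC those of Sema3b, Sema4f, Robo2, Efna1, Epha1 and Epha4. Ligands and receptors were both among the calls: of 35 ligands 9 were higher and 8 lower in NPC than in ES cells, and of 33 receptors 12 were higher and 3 lower. For MEF against ES the ligands gave 14 higher and 6 lower, and the receptors 11 higher and 0 lower. The scaling of the arrays moves the balance of higher and lower calls for MEF: among the members called between MEF and ES cells 25 were higher and 5 lower with median centring and 29 higher and 3 lower at the deposited scaling, and between MEF and NPC 24 and 10 with median centring and 27 and 10 at the deposited scaling.

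**Figure D1:**
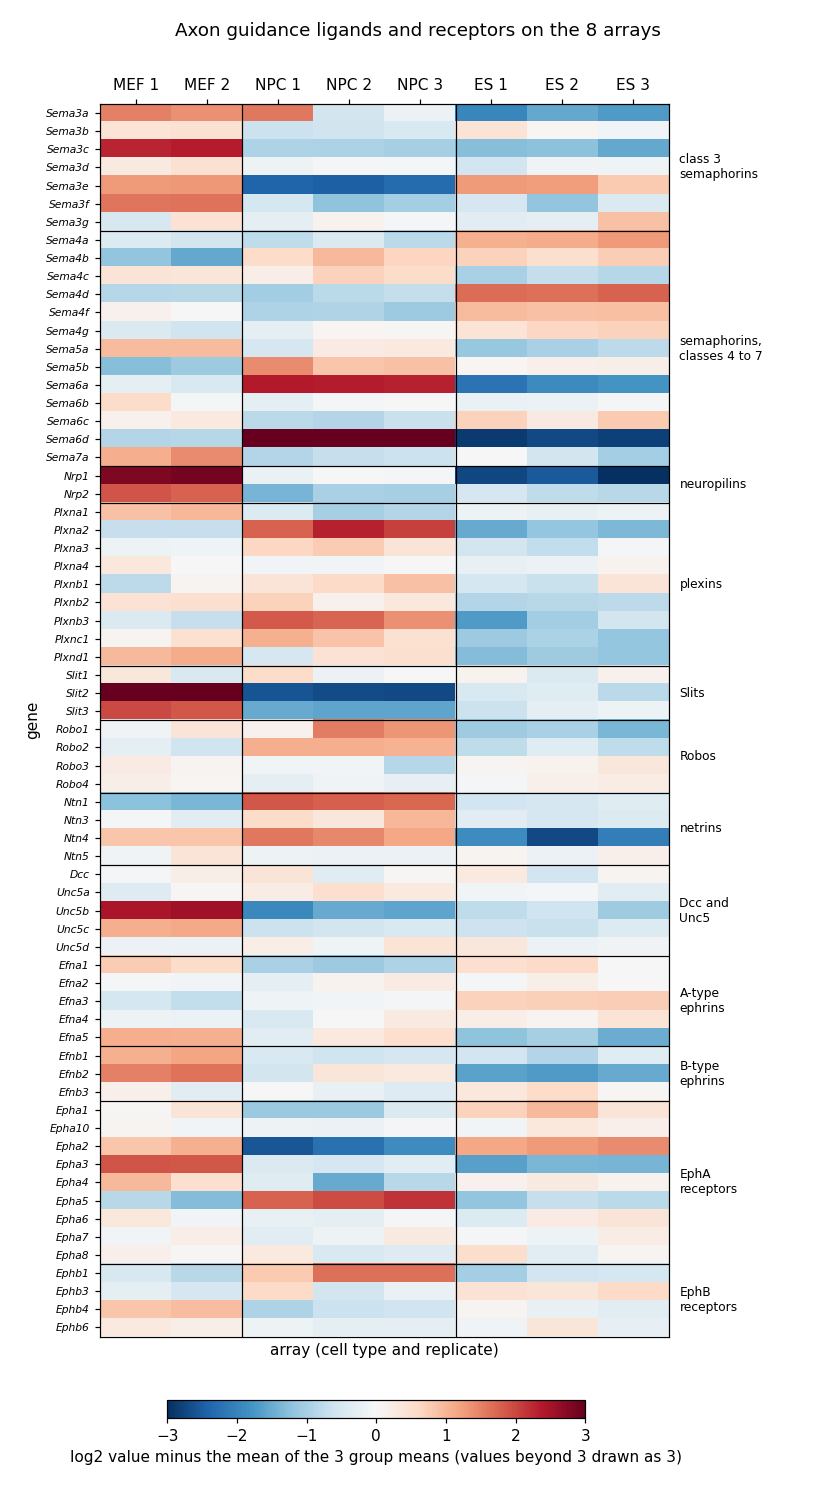
Level of each of the 68 ligands and receptors (rows, grouped by family) on the 8 arrays (columns: MEF, NPC, ES cells), as log2(intensity + 16) minus the mean of the 3 group means, with colours limited to 3 log2 units either way. Sema6d, Sema6a, Plxna2, Ntn1 and Epha5 are strongest in the NPC columns, Nrp1, Slit2, Unc5b and Sema3c in the MEF columns, and Sema4d and Sema4a in the ES columns.

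The promoter windows of 5 members are shown, those with the largest rise and the largest fall of each comparison. Their CG dinucleotides, the sites of DNA methylation and the basis of CpG islands, differ widely in number. They are RefSeq windows of 300 bases on GRCm38.p6, spanning a transcript start and read on the gene's strand with each CG in capitals. Slit2 and Nrp1 were called higher in MEF than in both others, Sema6d in NPC and Sema4d in ES cells, while Epha2 was called lower in NPC than in both others. Slit2 (chr5:47982905-47983204, plus strand) held 30 CG and Nrp1 (chr8:128358823-128359122, plus strand) held 14. Sema6d is shown by the more upstream of its windows (chr2:124089719-124090018, plus strand), with 14 CG, and Sema4d by the most upstream of its windows (chr13:51756634-51756933, minus strand), with 2 CG. Epha2 (chr4:141300971-141301270, plus strand) held 10.
Slit2: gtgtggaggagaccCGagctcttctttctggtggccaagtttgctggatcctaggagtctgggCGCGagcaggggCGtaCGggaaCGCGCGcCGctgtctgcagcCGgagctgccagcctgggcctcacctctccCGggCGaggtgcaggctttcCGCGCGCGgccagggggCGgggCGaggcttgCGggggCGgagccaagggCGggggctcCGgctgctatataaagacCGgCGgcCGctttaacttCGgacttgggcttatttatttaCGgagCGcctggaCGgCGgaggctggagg
Nrp1: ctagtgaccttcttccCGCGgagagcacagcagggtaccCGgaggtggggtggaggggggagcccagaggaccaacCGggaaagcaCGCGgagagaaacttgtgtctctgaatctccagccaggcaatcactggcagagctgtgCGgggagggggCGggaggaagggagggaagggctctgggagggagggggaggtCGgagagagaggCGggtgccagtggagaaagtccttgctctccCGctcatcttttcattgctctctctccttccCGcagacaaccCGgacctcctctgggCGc
Sema6d: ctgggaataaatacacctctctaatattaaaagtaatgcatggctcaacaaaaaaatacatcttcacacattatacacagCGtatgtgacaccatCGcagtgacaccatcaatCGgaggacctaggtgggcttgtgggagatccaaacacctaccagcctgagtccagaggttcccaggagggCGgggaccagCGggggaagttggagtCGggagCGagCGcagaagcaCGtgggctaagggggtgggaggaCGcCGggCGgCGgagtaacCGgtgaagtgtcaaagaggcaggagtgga
Sema4d: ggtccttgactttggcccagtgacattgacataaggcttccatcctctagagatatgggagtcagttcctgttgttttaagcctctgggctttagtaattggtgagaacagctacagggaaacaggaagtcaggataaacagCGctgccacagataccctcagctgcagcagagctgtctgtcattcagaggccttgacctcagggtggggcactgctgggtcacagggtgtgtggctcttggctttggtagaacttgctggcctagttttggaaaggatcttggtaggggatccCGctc
Epha2: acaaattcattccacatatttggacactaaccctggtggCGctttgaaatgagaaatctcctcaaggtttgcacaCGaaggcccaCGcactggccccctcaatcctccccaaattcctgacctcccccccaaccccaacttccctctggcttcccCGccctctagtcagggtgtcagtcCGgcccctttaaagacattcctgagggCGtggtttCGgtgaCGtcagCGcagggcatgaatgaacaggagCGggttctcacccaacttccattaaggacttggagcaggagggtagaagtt
The windows of members were filtered by chromosome before counting. Members left with no window, Sema6a and Dcc among them, do not enter the medians of members. Of the 68 members 58 had windows after this filter, 74 in all. The median was 18.5 CG per window over these 74. It was 7 over all 32851 windows of 27025 genes, coding or not, to which the filter by chromosome was not applied. The medians of members and of all windows thus come from differently filtered sets. The 12 windows of members called higher in MEF than in both others had a median of 27 CG, with a range of 14 to 42. The 9 windows of 6 such NPC members had a median of 14, with a range of 4 to 30, and the 7 windows of Sema4a and Sema4d had a median of 4, with a range of 2 to 14. The 18 windows of members called in no comparison had a median of 22. At least 1 CG was in 94.6% of all windows. These are descriptions of sequence, with no test and no measurement of methylation.

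Of the 7 class 3 semaphorins, which are secreted, 4 were called higher and 0 lower in MEF than in NPC, 3 higher and 0 lower in MEF than in ES cells, and 1 higher and 1 lower in NPC than in ES cells. Sema3c, a cue best known from heart and neural crest development, was at 8.48 and 8.55 in MEF, 5.27, 5.24 and 5.19 in NPC and 4.93, 4.97 and 4.66 in ES cells. MEF were thus apart from both others, with a difference of 3.67 ± 0.17 (SE) to ES cells, 12.7-fold, and limma adjusted p = 3.35e-07, and of 3.28 ± 0.17 to NPC. Sema3e, which signals through Plxnd1 without a neuropilin, was at 7.87 and 7.89 in MEF, 4.19, 4.15 and 4.28 in NPC and 7.88, 7.84 and 7.37 in ES cells. It was low only in NPC among the 3 groups: the difference was -3.49 ± 0.17 for NPC minus ES, 11.2-fold, and 3.67 ± 0.19 for MEF minus NPC, while MEF minus ES was 0.18, with a 95% interval of -0.24 to 0.61. At the deposited scaling that last difference was 1.003 and was called. Sema3f, the usual partner of Nrp2, was at 7.67 and 7.68 in MEF, 5.54, 4.86 and 5.05 in NPC and 5.56, 4.87 and 5.64 in ES cells. It was called higher in MEF than in both others, by 2.32 against ES cells and 2.53 against NPC.

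Sema3a, a repellent that collapses growth cones through Nrp1, was at 8.07 and 7.94 in MEF, 8.14, 6.01 and 6.37 in NPC and 4.59, 5.02 and 4.86 in ES cells. ES cells were below all other arrays, by 3.18 ± 0.52 in MEF minus ES (adjusted p = 0.000831) and by 2.02 ± 0.47 in NPC minus ES (adjusted p = 0.00605). NPC 1 was at the level of MEF while NPC 2 and NPC 3 were lower, and MEF minus NPC, at 1.16 ± 0.52, was not called (adjusted p = 0.118). Without NPC 1 it was 1.81 and called. Sema3b, a dim member, was at 5.11 and 5.15 in MEF, 4.04, 4.09 and 4.24 in NPC and 5.12, 4.76 and 4.62 in ES cells. It was called higher in MEF than in NPC at 1.004, just past the minimum, and this call ended without NPC 1 (0.96), without NPC 2 (0.99), without MEF 2 (0.98), with median centring (0.91) and with the replicate block (0.98). Sema3d and Sema3g were called in no comparison.

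The neuropilins are the ligand-binding part of the class 3 semaphorin receptor and also bind VEGF. Nrp1 was at 10.36 and 10.44 in MEF, 7.38, 7.54 and 7.53 in NPC and 4.83, 5.05 and 4.55 in ES cells. The groups did not overlap, and all 3 differences were called: MEF minus ES at 5.59 ± 0.16, 48.2-fold (limma adjusted p = 3.03e-08), MEF minus NPC at 2.92 ± 0.16 and NPC minus ES at 2.67 ± 0.15. Nrp2 was at 8.94 and 8.82 in MEF, 5.65, 6.07 and 6.06 in NPC and 6.56, 6.31 and 6.22 in ES cells. It was called higher in MEF than in NPC by 2.95 ± 0.18 and than in ES cells by 2.52 ± 0.18, while NPC minus ES, at -0.43 with a 95% interval of -0.80 to -0.06, was not called. Both neuropilins are also carried by endothelial cells and Nrp1 by some macrophages. Of 6 endothelial markers, 0 were called between MEF and NPC and 1, Pecam1, was called lower in MEF than in ES cells (-2.79). Kdr, at 5.69 and 5.97, was higher in MEF than on any NPC or ES array, with MEF minus NPC at 0.98 and MEF minus ES at 0.85, neither called. Of 6 macrophage markers, 5 were called higher in MEF than in NPC, and 4 higher and 1 lower, Cd68 (-1.31), in MEF than in ES cells. The part of either cell type in the neuropilin levels was not tested.

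The membrane-bound semaphorins of classes 4 to 7 split by cell type. Of 13 measured, 3 were called higher and 4 lower in NPC than in ES cells, 5 higher and 5 lower in MEF than in ES cells, and 2 higher and 4 lower in MEF than in NPC. Sema6d had the widest difference of any member between NPC and ES cells. It is a transmembrane cue that binds Plxna1, and it was at 6.78 and 6.79 in MEF, 11.39, 11.25 and 11.25 in NPC and 4.78, 4.94 and 4.85 in ES cells. Every NPC array was above both MEF arrays, and these were above every ES array: NPC minus ES was 6.44 ± 0.10, 86.6-fold (limma adjusted p = 9.79e-10), MEF minus NPC was -4.51 ± 0.11, and MEF minus ES was 1.92 ± 0.11. Its 3 further probe sets gave 1.83, 3.37 and 1.89 for NPC minus ES. For MEF minus ES they were below 1, and the mean of all its probe sets, 0.97, ended that call. Sema6a, a transmembrane cue known from cerebellar granule cell migration, was at 6.14 and 5.97 in MEF, 8.81, 8.79 and 8.75 in NPC and 4.21, 4.53 and 4.63 in ES cells. It followed the same order, with NPC minus ES at 4.32 ± 0.15, 20.0-fold (adjusted p = 5.7e-08), and MEF minus NPC at -2.72 ± 0.17. Its MEF minus ES difference of 1.60 was 0.79 in the mean of its probe sets and then not called.

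ES cells were apart from both others in a pair of class 4 semaphorins. Sema4d, a ligand of Plxnb1 first studied in lymphocytes, was at 5.82 and 5.84 in MEF, 5.63, 5.88 and 5.97 in NPC and 8.36, 8.34 and 8.44 in ES cells. ES cells lay above all 5 other arrays, and both differences were -2.55, 5.86-fold lower in NPC and 5.85-fold lower in MEF (adjusted p = 5.47e-07 for NPC minus ES and 1.34e-06 for MEF minus ES). MEF minus NPC was 0.00, with a 95% interval of -0.34 to 0.34. The further probe sets of Sema4d were dimmer and gave -0.95 and -0.07 for NPC minus ES. Sema4a, an immune and retinal semaphorin, was at 4.44 and 4.32 in MEF, 4.10, 4.42 and 4.06 in NPC and 5.93, 5.97 and 6.13 in ES cells. It fell by 1.82 in NPC and by 1.63 in MEF against ES cells, but it was below the median of all genes in every group and lost both calls at a pseudocount of 64.

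Other members of classes 4 to 7 differed in other ways. Sema4c, a Plxnb2 ligand, was at 7.12 and 7.10 in MEF, 6.92, 7.42 and 7.29 in NPC and 5.76, 6.01 and 5.87 in ES cells. ES cells were below all other arrays, by 1.23 ± 0.18 in MEF minus ES and 1.33 ± 0.16 in NPC minus ES. Sema4b was at 6.10 and 5.74 in MEF, 7.83, 8.24 and 7.92 in NPC and 7.95, 7.75 and 8.01 in ES cells. It was lowest in MEF, with MEF minus NPC at -2.07 ± 0.17 and MEF minus ES at -1.99 ± 0.17, where for the last the mean of its probe sets gave -0.88 and no call. Sema5b, a cue of retina and cortex, was at 4.80 and 4.99 in MEF, 7.50, 6.90 and 6.96 in NPC and 6.14, 6.23 and 6.26 in ES cells. MEF were below all other arrays, with MEF minus NPC at -2.22 ± 0.21 and MEF minus ES at -1.32 ± 0.21. The second call ended at the deposited scaling (-0.98) and at a pseudocount of 64 (-0.66). Sema7a, the GPI-anchored semaphorin, was at 6.91 and 7.23 in MEF, 4.93, 5.13 and 5.18 in NPC and 5.83, 5.26 and 4.79 in ES cells. It was called higher in MEF by 1.99 ± 0.29 against NPC and 1.78 ± 0.29 against ES cells. Sema5a, a relative of Sema5b, was at 6.23 and 6.24 in MEF, 4.77, 5.53 and 5.58 in NPC and 4.14, 4.30 and 4.50 in ES cells. It was called higher in MEF than in ES cells at 1.92, and its NPC minus ES value of 0.98 was called without NPC 1 (1.24) or without ES 3 (1.07). Sema4g was at 5.53 and 5.35 in MEF, 5.69, 6.01 and 5.99 in NPC and 6.37, 6.57 and 6.65 in ES cells. MEF were below ES cells on every array, at -1.09, a call that ended at the deposited scaling (-0.64) and with median centring (-0.97).

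Sema4f and Sema6c were read from probe sets of shared sequence. Sema4f was at 5.31 and 5.20 in MEF, 4.25, 4.28 and 4.09 in NPC and 6.14, 6.06 and 6.08 in ES cells. Sema6c was at 6.31 and 6.47 in MEF, 5.38, 5.31 and 5.51 in NPC and 6.87, 6.45 and 6.96 in ES cells. They fell by 1.88 and 1.36 in NPC against ES cells, and without such probe sets the values were -0.62 for Sema4f and 0.09, in the other direction, for Sema6c, neither called. Sema4f was also called higher in MEF than in NPC at 1.05, and this ended, among other settings, without MEF 1 (0.99), without NPC 3 (0.99) and without shared sequence (0.44).

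Most plexins, which carry the semaphorin signal into the cell, were called higher in NPC than in ES cells. Of 9 measured, 6 were called higher and 0 lower in NPC than in ES cells and 4 higher and 0 lower in MEF than in ES cells, while MEF against NPC gave 1 higher and 2 lower. Plxna2, a receptor of class 6 semaphorins, was at 6.32 and 6.32 in MEF, 8.80, 9.33 and 9.08 in NPC and 5.51, 5.85 and 5.67 in ES cells. NPC were above all other arrays, with NPC minus ES at 3.39 ± 0.16, 10.5-fold (limma adjusted p = 2.99e-07), and MEF minus NPC at -2.75 ± 0.18. Plxnb3, known from oligodendrocytes and as a Sema5a receptor, was at 6.31 and 6.05 in MEF, 8.57, 8.47 and 8.12 in NPC and 5.04, 5.68 and 6.17 in ES cells. It too was highest in NPC, by 2.75 ± 0.27 against ES cells (adjusted p = 2.84e-05) with MEF minus NPC at -2.20 ± 0.30.

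Plxna1, which pairs with neuropilins and also binds Sema6d, was at 8.89 and 8.999 in MEF, 7.61, 7.02 and 7.14 in NPC and 7.85, 7.79 and 7.87 in ES cells. It was the plexin called higher in MEF than in both others, by 1.69 ± 0.17 against NPC and 1.11 ± 0.17 against ES cells, and at the deposited scaling by 2.55 and 1.95. Plxnb2, a Sema4 receptor of neural progenitors and epithelia, was at 9.41 and 9.46 in MEF, 9.67, 9.11 and 9.29 in NPC and 8.10, 8.15 and 8.18 in ES cells. ES cells were below all other arrays, by 1.29 ± 0.15 in MEF minus ES and 1.21 ± 0.13 in NPC minus ES. MEF minus NPC was 0.08 here and 1.004, called, at the deposited scaling. Plxnd1, the Sema3e receptor of vessels and axons, was at 6.83 and 6.96 in MEF, 5.36, 6.29 and 6.33 in NPC and 4.55, 4.79 and 4.69 in ES cells. It was called lower in ES cells than in both others, with MEF minus ES at 2.22 ± 0.29 and NPC minus ES at 1.32 ± 0.26. NPC 1 lay below NPC 2 and NPC 3, and MEF minus NPC, 0.90, was called without NPC 2 (1.05) or NPC 3 (1.07). Plxnc1, the Sema7a receptor, was at 5.95 and 6.33 in MEF, 6.94, 6.70 and 6.32 in NPC and 4.76, 4.91 and 4.70 in ES cells. Its calls against ES cells, 1.35 for MEF and 1.86 for NPC, ended in the mean of its probe sets (0.61 and 0.68). Its 5 further probe sets gave -0.02 to 0.85 for MEF minus ES and -0.02 to 1.20 for NPC minus ES. Plxna3, which also pairs with neuropilins, was at 6.61 and 6.65 in MEF, 7.39, 7.54 and 7.17 in NPC and 6.22, 6.03 and 6.73 in ES cells. It was called at 1.04 for NPC minus ES and lost the call without ES 1 (0.99), ES 2 (0.89) or NPC 2 (0.95). Plxnb1 and Plxna4 were called in no comparison. Plxnb1 varied widely within groups, at 5.91 and 6.79 in MEF, 7.09, 7.27 and 7.58 in NPC and 6.17, 6.04 and 7.07 in ES cells, and was called higher in NPC than in ES cells without NPC 1 (1.004) or ES 3 (1.21) and lower in MEF than in NPC without NPC 1 (-1.08) or MEF 2 (-1.41).

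**Figure D2:**
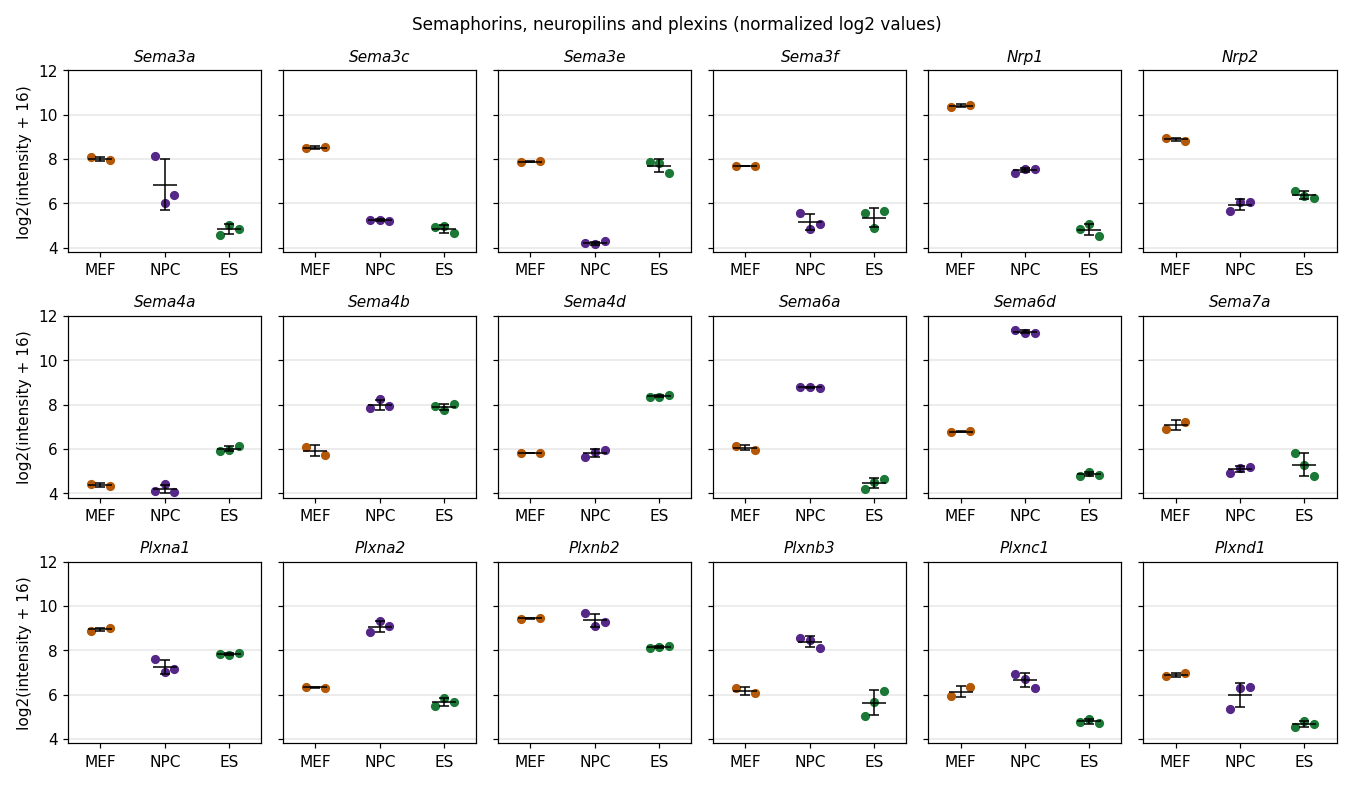
Level as log2(intensity + 16) of selected semaphorins, neuropilins and plexins, 1 panel a gene, with each array as a point for MEF, NPC and ES cells and bars for the mean ± SD. Sema6d, Sema6a and Plxna2 peak in NPC, Nrp1 and Sema3c in MEF and Sema4d in ES cells, while Sema3e is low in NPC alone and NPC 1 stands above the other NPC arrays in Sema3a.

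Among the Slits, secreted repellents, Slit2 and Slit3 were lowest in NPC and highest in MEF. Of 3 measured, 2 were called in each comparison: 2 lower in NPC than in ES cells, 2 higher in MEF than in ES cells and 2 higher in MEF than in NPC. Slit2 was at 10.52 and 10.65 in MEF, 4.78, 4.69 and 4.67 in NPC and 6.93, 7.01 and 6.57 in ES cells. The 3 groups did not overlap. MEF minus NPC was 5.87 ± 0.16, 58.5-fold (limma adjusted p = 2.44e-08), the widest difference of any member between those groups, MEF minus ES was 3.75 ± 0.16, and NPC minus ES was -2.12 ± 0.14. Slit3 was at 7.66 and 7.55 in MEF, 4.18, 4.12 and 4.11 in NPC and 5.05, 5.42 and 5.53 in ES cells. It followed the same order, with MEF minus NPC at 3.47 ± 0.19, MEF minus ES at 2.27 ± 0.19 and NPC minus ES at -1.20 ± 0.17, and its NPC level was at the bottom of the scale. Slit1 was below the median of all genes in every group and was called in no comparison. Of 4 fibroblast markers, all were called highest in MEF, and between NPC and ES cells, which had earlier been kept on MEF, 3 were called lower in NPC (Col1a1 at -1.996, Col1a2 at -1.74 and Thy1 at -1.02) and Twist1 higher (1.83). The part of fibroblast RNA in the Slit levels of ES cells was not tested.

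Robos are the Slit receptors. Of 4 measured, 2 were called higher in NPC than in ES cells, 1 higher in MEF than in ES cells and 1 lower in MEF than in NPC. Robo1 was at 7.43 and 7.93 in MEF, 7.67, 9.09 and 8.87 in NPC and 6.48, 6.56 and 6.18 in ES cells. All NPC arrays were above all ES arrays, with NPC minus ES at 2.13 ± 0.34 (adjusted p = 0.000603), but NPC 1 lay among the MEF arrays. MEF minus NPC was -0.86 ± 0.37 with no call (adjusted p = 0.106), and -1.30 with a call without NPC 1. MEF minus ES was 1.27 ± 0.37 (adjusted p = 0.0202), and the call ended without ES 3 (1.16, adjusted p = 0.0676) and without MEF 2 (1.03, adjusted p = 0.153). The further probe sets of Robo1 were near the bottom of the scale with differences near 0, and the mean of its probe sets gave 0.80 for NPC minus ES and 0.53 for MEF minus ES, neither called. Robo2 was at 4.51 and 4.19 in MEF, 5.89, 5.88 and 5.82 in NPC and 4.02, 4.43 and 4.03 in ES cells. NPC were above all other arrays, by 1.70 ± 0.16 against ES cells, while MEF minus NPC was -1.51 ± 0.18. Both calls ended at a pseudocount of 64, with 0.69 and -0.64, and Robo2 lay below the median of all genes in every group. Robo3 and Robo4 were dim in all groups and called in none.

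The netrins, laminin-related cues, were raised in NPC against ES cells, with 3 of 4 called higher and 0 lower. MEF gave 1 higher against ES cells and 1 lower against NPC. Ntn1, the classical attractant of commissural axons, was at 6.14 and 5.996 in MEF, 9.23, 9.17 and 9.11 in NPC and 6.80, 6.87 and 7.003 in ES cells. NPC were above all other arrays, with NPC minus ES at 2.28 ± 0.11, 4.84-fold (limma adjusted p = 2.89e-07), and MEF minus NPC at -3.10 ± 0.12, 8.58-fold lower. MEF were also below ES cells on every array, but the difference of -0.83 was short of the minimum. The further probe set of Ntn1 was dimmer and gave 0.33 for NPC minus ES and -0.49 for MEF minus NPC. The mean of its probe sets gave 1.30 and -1.80, both still called. Ntn4, a netrin of basement membranes, was at 7.80 and 7.81 in MEF, 8.55, 8.42 and 8.14 in NPC and 5.10, 4.26 and 4.90 in ES cells. It was low in ES cells and high in both others, by 3.05 ± 0.24 in MEF minus ES, 8.29-fold, and 3.61 ± 0.22 in NPC minus ES, 12.2-fold, while MEF minus NPC was -0.56, with a 95% interval of -1.12 to -0.01. Ntn3, a dim member, was at 4.50 and 4.23 in MEF, 5.12, 4.91 and 5.57 in NPC and 4.24, 4.07 and 4.16 in ES cells. It was called at 1.04 for NPC minus ES and lost the call without ES 2 (0.995) or NPC 3 (0.85).

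Of the netrin receptors, Dcc and 4 Unc5 genes, 0 were called between NPC and ES cells, and 2 were called higher in MEF than in each of the others. Unc5b, the Unc5 receptor known from vessels, was at 10.18 and 10.27 in MEF, 5.80, 6.22 and 6.16 in NPC and 6.97, 7.13 and 6.66 in ES cells. MEF were above all other arrays, with MEF minus NPC at 4.17 ± 0.18, 18.0-fold (adjusted p = 2.96e-07), and MEF minus ES at 3.31 ± 0.18, 9.89-fold. NPC were below ES cells on every array, at -0.86 ± 0.16, short of the minimum. Unc5c was at 7.09 and 7.14 in MEF, 5.37, 5.46 and 5.54 in NPC and 5.39, 5.33 and 5.59 in ES cells. NPC and ES cells overlapped, and MEF were above both by 1.66 ± 0.17 and 1.68 ± 0.17. Dcc, the attractive receptor, was at 5.27 and 5.51 in MEF, 5.70, 4.95 and 5.36 in NPC and 5.61, 4.74 and 5.41 in ES cells. Its groups overlapped in every comparison, and its 95% interval for NPC minus ES was -0.53 to 0.70. Unc5a and Unc5d were likewise dim and not called.

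**Figure D3:**
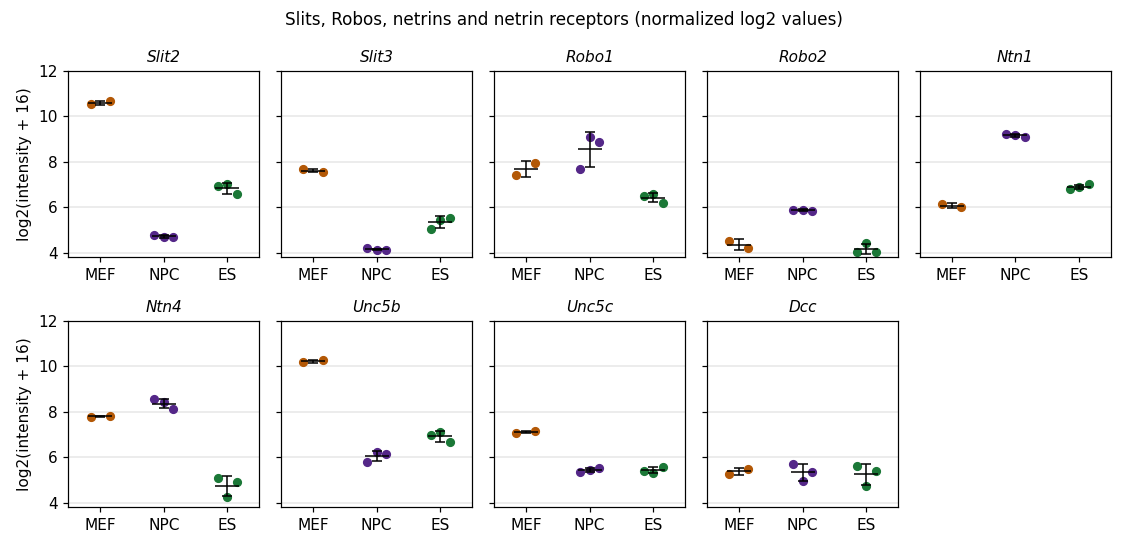
Level as log2(intensity + 16) of Slits, Robos, netrins and netrin receptors, 1 panel a gene, with each array as a point for MEF, NPC and ES cells and bars for the mean ± SD. Slit2, Slit3, Unc5b and Unc5c peak in MEF, Ntn1 and Robo2 in NPC, Ntn4 is low in ES cells alone, and Dcc overlaps in all groups.

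Of the ephrins, A-ephrins are GPI-anchored and B-ephrins span the membrane. Of 5 A-ephrins, NPC against ES gave 1 higher and 1 lower, MEF against ES 1 higher and 1 lower, and MEF against NPC 1 higher. Of 3 B-ephrins, 1 was called higher in NPC than in ES cells, 2 higher in MEF than in ES cells and 2 higher in MEF than in NPC, with 0 lower throughout. Efna5, a repellent that maps retinal axons onto the tectum, was at 7.66 and 7.64 in MEF, 6.22, 6.85 and 7.07 in NPC and 5.37, 5.56 and 5.06 in ES cells. ES cells were below all other arrays, by 2.32 ± 0.26 in MEF minus ES and 1.38 ± 0.23 in NPC minus ES. The second of these ended in the mean of its probe sets (0.73), and MEF minus NPC, 0.94, was called without NPC 2 (1.003) or NPC 3 (1.12). Efnb2, the ligand of Ephb4 at the border of arteries and veins, was at 8.87 and 8.9999 in MEF, 6.80, 7.72 and 7.66 in NPC and 5.76, 5.66 and 5.85 in ES cells. The groups did not overlap, with MEF minus ES at 3.18 ± 0.26, 9.05-fold (limma adjusted p = 8.79e-06), MEF minus NPC at 1.54 ± 0.26 and NPC minus ES at 1.63 ± 0.23. The NPC minus ES call ended in the mean of its probe sets (0.93). Efnb1 was at 8.46 and 8.56 in MEF, 6.93, 6.79 and 6.87 in NPC and 6.80, 6.51 and 7.02 in ES cells. It was called higher in MEF than in both others, by 1.65 ± 0.16 against NPC and 1.73 ± 0.16 against ES cells. Efna1, named first from endothelial cells, was at 6.15 and 5.93 in MEF, 4.40, 4.29 and 4.45 in NPC and 5.89, 5.95 and 5.36 in ES cells. It was low in NPC alone, at -1.35 ± 0.19 in NPC minus ES and 1.66 ± 0.21 in MEF minus NPC, but it was a dim member and both calls ended at a pseudocount of 64 (-0.56 and 0.73). Efna3 was at 5.73 and 5.50 in MEF, 6.11, 6.16 and 6.22 in NPC and 6.94, 6.95 and 6.98 in ES cells. MEF were lowest, at -1.34 ± 0.15 in MEF minus ES, and at -0.85, not called, at the deposited scaling. Efna2 and Efna4 were above the median of all genes and were called in no comparison, with arrays between 6.44 and 6.95 for Efna2 and between 6.49 and 7.36 for Efna4.

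Among the EphA receptors, Epha1, Epha2 and Epha4 were called lower in NPC than in both others, Epha3 higher in MEF and Epha5 higher in NPC. Of 9 measured, 2 were called higher and 3 lower in NPC than in ES cells, 1 higher and 0 lower in MEF than in ES cells, and 4 higher and 1 lower in MEF than in NPC. The share called between MEF and ES cells, 11.1%, was below the 25.0% of all genes. Epha2, an epithelial and stem cell Eph receptor, was at 7.89 and 8.13 in MEF, 4.52, 4.85 and 5.19 in NPC and 8.23, 8.35 and 8.49 in ES cells. NPC were below all other arrays, at -3.50 ± 0.18 in NPC minus ES, 11.3-fold (limma adjusted p = 5.35e-07), and MEF minus NPC was 3.16 ± 0.20, 8.94-fold. MEF minus ES was -0.35, with a 95% interval of -0.81 to 0.12. The sums of 4 epithelial markers were 222 to 225 in MEF, 86.4 to 101 in NPC and 4650 to 5000 in ES cells, and their part in the Epha2 difference was not tested. Epha5, a receptor of forebrain neurons, was at 4.50 and 4.02 in MEF, 7.11, 7.29 and 7.50 in NPC and 4.16, 4.63 and 4.52 in ES cells. It was high in NPC alone, with NPC minus ES at 2.86 ± 0.20, 7.28-fold (adjusted p = 3.8e-06), and MEF minus NPC at -3.04 ± 0.23. Epha3, a receptor of mesenchyme and motor axons, was at 7.56 and 7.53 in MEF, 5.24, 5.15 and 5.34 in NPC and 4.04, 4.30 and 4.27 in ES cells. MEF were above all other arrays, with MEF minus ES at 3.34 ± 0.17, 10.1-fold, and MEF minus NPC at 2.30 ± 0.17, while the call of NPC minus ES, 1.04, ended without ES 1 (0.96) or NPC 3 (0.99), at the deposited scaling (0.96) and with median centring (0.98).

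Epha4, a receptor for both ephrin classes, was at 7.09 and 6.63 in MEF, 5.76, 4.61 and 5.30 in NPC and 6.26, 6.39 and 6.22 in ES cells. NPC were below all other arrays with a wide spread, at -1.07 ± 0.28 in NPC minus ES and 1.63 ± 0.31 in MEF minus NPC. The NPC minus ES call ended without NPC 2 (-0.76), with median centring (-0.96), at the deposited scaling (-0.99) and in the mean of its probe sets (-0.42). Epha1 was at 5.20 and 5.55 in MEF, 4.06, 4.07 and 4.74 in NPC and 5.88, 6.16 and 5.56 in ES cells. It was called lower in NPC at -1.58 ± 0.24 against ES cells, where the mean of its probe sets gave -0.55 and no call, and its MEF minus NPC call, 1.09, ended without NPC 1 (0.97), without NPC 2 (0.98) and without MEF 2 (0.91). Epha6, Epha7, Epha8 and Epha10 were below the median of all genes in every group and not called.

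Of 4 EphB receptors, 1 was called higher in NPC than in ES cells, 1 higher in MEF than in ES cells, and 1 higher and 1 lower in MEF than in NPC. Ephb1, a receptor at the optic chiasm, was at 5.05 and 4.71 in MEF, 6.33, 7.18 and 7.19 in NPC and 4.51, 4.96 and 5.01 in ES cells. NPC were above all other arrays, by 2.07 ± 0.27 against ES cells (limma adjusted p = 0.00017), and MEF minus NPC was -2.02 ± 0.30. Ephb4, the Efnb2 receptor of veins, was at 7.28 and 7.38 in MEF, 5.53, 5.80 and 5.86 in NPC and 6.53, 6.23 and 6.12 in ES cells. MEF were above all other arrays, by 1.60 ± 0.19 against NPC and 1.04 ± 0.19 against ES cells, and the second call ended without ES 3 (0.95) or MEF 2 (0.99). Ephb3 was above the median of all genes with no call, at 7.11 and 6.91 in MEF, 7.98, 6.87 and 7.21 in NPC and 7.85, 7.77 and 7.98 in ES cells. Ephb6 was dim and not called.

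**Figure D4:**
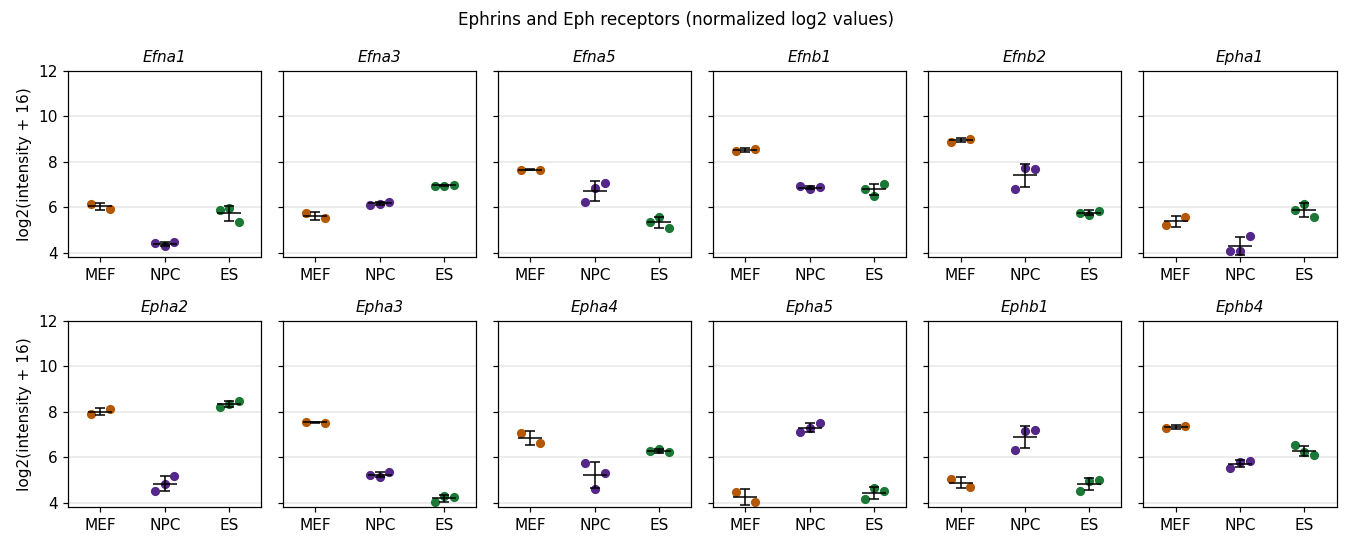
Level as log2(intensity + 16) of ephrins and Eph receptors, 1 panel a gene, with each array as a point for MEF, NPC and ES cells and bars for the mean ± SD. Epha2, Efna1 and Epha1 are low in NPC, Epha5 and Ephb1 are high in NPC alone, and Efnb1, Efnb2, Epha3 and Ephb4 are highest in MEF.

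Some ligands and receptors they are known to bind were set side by side, each by its own differences. Other pairs named above were not, among them Sema3f and Nrp2, both called highest in MEF. Sema6d and its receptor Plxna1 differed in direction between MEF and NPC: Sema6d was lower in MEF (-4.51) and Plxna1 higher (1.69). Sema6a and its receptor Plxna2 were both called highest in NPC, with NPC minus ES at 4.32 for Sema6a and 3.39 for Plxna2, and MEF minus NPC at -2.72 and -2.75. Sema3e and Plxnd1 moved apart between NPC and ES cells, with Sema3e lower in NPC (-3.49) and Plxnd1 higher (1.32). Sema4d and Plxnb2 did likewise, at -2.55 for Sema4d and 1.21 for Plxnb2, while Plxnb1, the receptor named with Sema4d above, was at 0.89 and not called. Sema4c and Plxnb2 were both called lower in ES cells than in NPC and MEF. Slit2 and Robo1 were opposite in NPC minus ES, at -2.12 for Slit2 and 2.13 for Robo1. Both were called higher in MEF than in ES cells, at 3.75 and 1.27. Efnb2 and Ephb4 were both called highest in MEF. For Ntn1, high in NPC, neither Dcc nor an Unc5 gene was called between NPC and ES cells, and Unc5b was lower in NPC than in MEF. No test was made of whether a ligand and its receptor differ from each other, and RNA levels do not give protein at the cell surface.

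Several members were called in the same direction against both other groups. In MEF 14 members were higher than in both others (20.6% of 68, where all genes gave 6.22%): Sema3c, Sema3f, Sema7a, Nrp1, Nrp2, Plxna1, Slit2, Slit3, Unc5b, Unc5c, Efnb1, Efnb2, Epha3 and Ephb4. In NPC 8 were (11.8%, all genes 4.21%): Sema6a, Sema6d, Plxna2, Plxnb3, Robo2, Ntn1, Epha5 and Ephb1. Beside the NPC genes, Syt1 and Dcx of the neuron list were also called higher in NPC than in MEF and in ES cells. Of the 7 neuron genes, 2 were called higher and 1 lower in NPC than in ES cells, the last being Stmn2 (-7.04). Between MEF and NPC 2 were called higher in MEF, Stmn2 (4.51) and Tubb3 (1.36), and 3 lower. The sums of 4 astrocyte markers were 110 to 128 in MEF, 4480 to 6100 in NPC and 952 to 1010 in ES cells. Of these, Aldoc and Slc1a3 were called higher in NPC than in both others, with NPC means of 12.02 and 9.70. Gfap and Aqp4 were dim in every group and called in no comparison. The part of neurons or astrocytes was not tested. In ES cells 2 members were higher than in both others (2.94%, all genes 7.77%), Sema4a and Sema4d. Lower than in both others were 2 in MEF (2.94%, all genes 2.53%), Sema4b and Sema5b, 8 in NPC (11.8%, all genes 4.06%) and 13 in ES cells (19.1%, all genes 4.70%). The 8 lower in NPC were Sema3e, Sema4f, Slit2, Slit3, Efna1, Epha1, Epha2 and Epha4. The 13 lower in ES cells were Sema3a, Sema4c, Sema6a, Sema6d, Nrp1, Plxnb2, Plxnc1, Plxnd1, Robo1, Ntn4, Efna5, Efnb2 and Epha3. In all, 47 members were called in at least 1 comparison, 69.1% of 68, where 6719 of all genes were, 36.9%.

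The 21 members called in no comparison were mostly dim. Of them 17 were below the median of all genes in each group, a median of 6.16 in MEF, 5.90 in NPC and 6.13 in ES cells, with arrays between 4.04 and 5.94. Differences near the bottom of the scale are compressed, and absence of the RNA cannot be read from a dim value. In all, 24 members (35.3%) were dim by this measure, where 40.0% of all genes were. The 7 dim members with a call were Sema3b, Sema4a, Sema4f, Robo2, Ntn3, Efna1 and Epha1. The 4 uncalled members above it in at least 1 group were Plxnb1, Efna2, Efna4 and Ephb3.

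Further probe sets of the same gene gave a second reading of the same RNA, not of other samples. Of the members called between NPC and ES cells, 24 had further probe sets, and in 21 of these all were on the same side. For MEF against ES this was 23 of 25, and for MEF against NPC 24 of 26. No further probe set was on the opposite side by 1 or more in any comparison. Those on the opposite side at all were close to 0: Efnb2 at -0.14, Plxnc1 at -0.02 and Sema6c at 0.09 for NPC minus ES, Plxnc1 at -0.02 and Sema4b at 0.23 for MEF minus ES, and Sema3b at -0.04 and Sema4b at 0.04 for MEF minus NPC. A further probe set on the same side by 1 or more was found for 13 of the 24, 17 of the 25 and 20 of the 26. With the mean of all probe sets of each gene, fewer members were called. The counts were 23 for NPC against ES, 26 for MEF against ES and 29 for MEF against NPC. The shares of all genes called were then 18.7%, 20.6% and 15.2%.

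**Figure D5:**
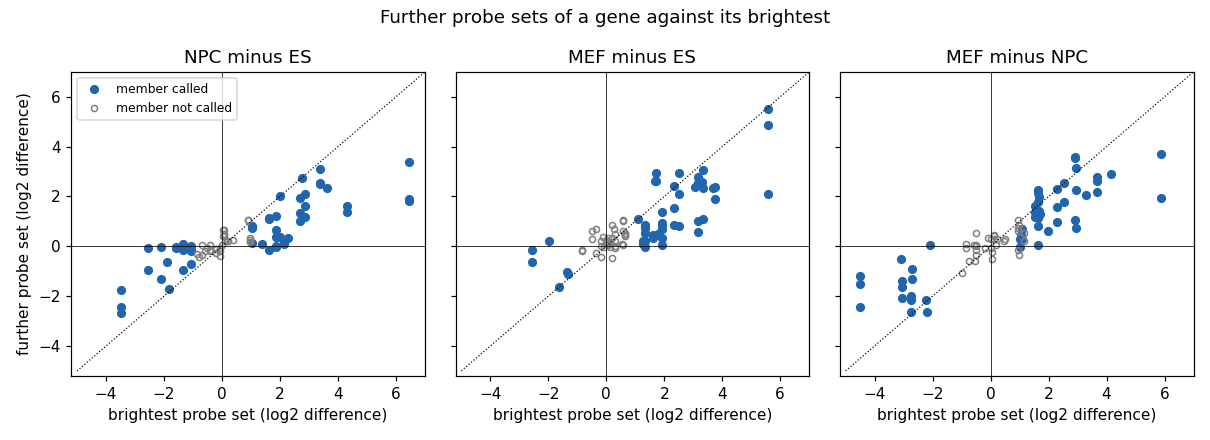
Log2 difference of each further probe set (vertical axis) against that of the brightest probe set of the same gene (horizontal axis), 1 panel a comparison, with filled points for called members and open points for the others. Most filled points lie on the same side of 0 as the brightest probe set, 49 of 52 for NPC against ES, 46 of 48 for MEF against ES and 49 of 51 for MEF against NPC.

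Genes that work with these cues and receptors were taken from lists of adhesion partners, other cues with their receptors and sheddases, and cytoplasmic effectors, 84 genes of which 81 were measured. NPC against ES gave 25 higher and 6 lower, MEF against ES 22 higher and 2 lower, and MEF against NPC 14 higher and 14 lower. The balance for MEF depended on the scaling: MEF against NPC gave 23 higher and 12 lower with median centring and 31 and 9 at the deposited scaling, and MEF against ES 29 and 1 with median centring and 33 and 0 at the deposited scaling. The called shares were 38.3%, 29.6% and 34.6%, where all genes gave 22.9%, 25.0% and 18.5%. The 14 adhesion partners, cell adhesion proteins that join guidance receptors on axons, gave 6 higher and 0 lower in NPC against ES. They gave 0 higher and 5 lower in MEF against NPC, and MEF against ES gave 1 higher. The called shares were 42.9% for NPC against ES, 35.7% for MEF against NPC and 7.14% for MEF against ES, the last below the 25.0% of all genes. Nrcam, a partner of neuropilins and plexins, was at 4.83 and 4.89 in MEF, 7.47, 7.62 and 7.32 in NPC and 5.20, 5.17 and 4.97 in ES cells. It was high in NPC alone, by 2.36 ± 0.15 in NPC minus ES. Chl1, a close relative of L1, was at 4.96 and 4.82 in MEF, 9.04, 6.79 and 6.67 in NPC and 4.32, 4.49 and 4.15 in ES cells. NPC 1 lay far above the other NPC arrays in this gene, and NPC minus ES was 3.18 ± 0.54 (adjusted p = 0.00101). Ncam1, the neural cell adhesion molecule, was raised against ES cells in MEF (2.92 ± 0.15) and NPC (2.43 ± 0.13) and differed by 0.49 between MEF and NPC, not called.

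Of the 18 other cues, receptors and sheddases, 4 were higher and 1 lower in NPC than in ES cells, 7 higher and 0 lower in MEF than in ES cells, and 4 higher and 1 lower in MEF than in NPC. The called shares were 27.8%, 38.9% and 27.8%, where all genes gave 22.9%, 25.0% and 18.5%, so the first lies near that of all genes. Flrt2, a ligand of Unc5 receptors, was at 10.15 and 10.02 in MEF, 7.57, 6.98 and 7.12 in NPC and 4.87, 4.92 and 4.81 in ES cells. It was highest in MEF, by 5.22 ± 0.18 against ES cells, 37.3-fold, the group in which Unc5b and Unc5c were also called highest. Gpc4, a glypican, fell by 1.71 in NPC against ES cells and was 2.64 higher in MEF. Adam10, the sheddase of ephrins and their receptors, was at 10.27 and 10.51 in MEF, 10.43, 10.41 and 10.39 in NPC and 8.48, 8.51 and 8.48 in ES cells. ES cells were below all other arrays, and MEF minus NPC was -0.02.

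Of 49 cytoplasmic effectors measured, 15 were higher and 5 lower in NPC than in ES cells. MEF gave 14 higher and 2 lower against ES cells, and 10 higher and 8 lower against NPC. The called shares were 40.8%, 32.7% and 36.7% in the same order, where all genes gave 22.9%, 25.0% and 18.5%. Srgap2, which acts below Robo, was at 7.69 and 7.71 in MEF, 10.33, 10.39 and 10.35 in NPC and 7.92, 7.84 and 8.08 in ES cells. NPC alone were high, and MEF minus NPC was -2.66 ± 0.10. Fyn, a kinase used by plexin and Dcc signalling, was at 8.84 and 9.01 in MEF, 10.91, 10.46 and 10.52 in NPC and 6.93, 6.83 and 6.80 in ES cells. The groups did not overlap, with NPC highest. Vav3, an exchange factor below Eph receptors, was 4.79 ± 0.25 higher in NPC than in ES cells, 27.7-fold, and MEF minus NPC was -4.18 ± 0.28. Dpysl3, of the CRMP family that acts below semaphorins, was at 11.09 and 11.07 in MEF, 9.03, 8.21 and 8.26 in NPC and 7.19, 7.34 and 7.37 in ES cells. It was highest in MEF, by 3.78 ± 0.22 against ES cells, with Mical2, an oxidase of actin, at 3.51. Lower in NPC than in ES cells were Limk2, at -1.80, Mical1, at -1.61, and Enah, at -1.45. Mical1 was at 6.47, 4.63 and 4.12 in NPC, so NPC 1 lay near the 6.74, 6.48 and 6.85 of ES cells and the others well below. The part of macrophage RNA, whose markers are given with the neuropilins, was not tested in these differences.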

How the data were processed

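RNA had been measured on mouse oligonucleotide arrays in MEF (2 arrays), NPC (3) and ES cells (3). The deposited values are linear probe set intensity. They were made with GCOS 1.4, per the submitters' processing notes. How it summarised, background-corrected or scaled the arrays is not given in the sources used here. No detection calls or probe positions were used. Control probe sets (64) were left out. Of 45037 others, 34945 were listed with 1 gene, 932 with several and 9160 with none, in GEO's platform annotation.

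Intensities were taken to log2(intensity + 16) and quantile normalized. Each of 18193 genes was read from the probe set with the highest mean. All 8 arrays entered 1 linear model with a variance trend (limma 3.58.1, R 4.3.3), with Benjamini-Hochberg adjustment over 18193 genes. The fit was tested on simulated data. Errors of differences are SE and intervals are 95%.

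The members and lists were chosen with earlier results of these data known. Values on every array are given for each member called in at least 1 comparison, and for Dcc, Plxnb1 and Ephb3, picked after their values were seen. From each other list, up to 3 called genes with the largest rise and 3 with the largest fall per comparison could be named. Same-numbered arrays of different groups did not deviate together (correlations of -0.0199 to 0.0228), so replicate numbers were not used. Alternatives were other scalings, pseudocounts of 1 and 64, a filter on dim genes, averaging all probe sets of each gene, dropping probe sets of shared sequence, no variance trend, array weights, a replicate block, other thresholds and leaving out each array. Promoter windows came from RefSeq on GRCm38.p6, matched by symbol, and those of members were filtered by chromosome.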

Additional observations from a re-analysis of the deposited data

How the results depend on the processing

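Of 94 called differences of guidance genes, 58 kept their call and direction in every one of up to 20 alternative fits that held them, 36 lost the call in at least 1, and 1 reversed: Sema6c, NPC minus ES, was 0.0908 without probe sets of shared sequence. The other thresholds were not among these fits. Of the 58, Epha2 in both its comparisons and Ephb4 for MEF against NPC could not be fitted without shared sequence. A further 18 uncalled differences were called in at least 1. At a pseudocount of 64, which compresses dim genes, 17 members were called for NPC against ES and 20 for MEF against ES, where 14.4% and 16.1% of all genes were. With a minimum difference of 2, the counts of members were 15 for NPC against ES, 14 for MEF against ES and 19 for MEF against NPC, and those of partner and effector genes were 12, 10 and 12. The shares of all genes called were then 8.29%, 8.57% and 6.85%. With no minimum difference, 47 partner and effector genes were called for NPC against ES and 46 for MEF against NPC, where 46.9% and 39.3% of all genes were. Leaving out 1 array gave 30 to 34 members for NPC against ES, 29 to 31 for MEF against ES and 30 to 34 for MEF against NPC. It gave 29 to 32, 23 to 25 and 25 to 29 partner and effector genes in the same order, and 23 to 28 members higher in 1 group than in both others. With a replicate block the members called were 32, 31 and 32.

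With the deposited scaling the median of all genes was 0.318 for MEF minus ES and 0.433 for MEF minus NPC. The share of higher calls among all genes called between MEF and ES cells was 48.9% after quantile normalization, 65.1% after median centring and 79.3% in the deposited scaling, and between MEF and NPC 56.9%, 74.1% and 87.5%. The medians of the guidance genes at the deposited scaling were 0.588 for MEF minus ES and 0.605 for MEF minus NPC. No outlier test was made in groups of 2 and 3 arrays, and genes near the bottom of the intensity scale carry no usable order.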
